A study of Mus musculus with 5 samples.

Results

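The comparison set 2 mouse medulloblastomas whose sample titles start with ken against 2 whose titles start with hmk, so 4 of the 5 arrays of the series took part. The fifth, a cerebellum read from its title as postnatal day 5 (P5), served only as an outside reference for the direction of a difference. Medulloblastoma is a tumour of the cerebellum. The tumours are called ken 1, ken 2, hmk 1 and hmk 2 here, numbered in the order of the records, and the title of the cerebellum also starts with hmk. The series as a whole is about such tumours in mice with a mutation in Cxcr6, a chemokine receptor, and their answer to a drug against Smoothened, a step of the Hedgehog pathway. The sample labels give no genotype, strain, treatment, sex or tumour age, and they do not say what ken and hmk stand for or whether the 4 tumours came from separate animals. Anything the prefix marks therefore cannot be told apart from the tumours themselves. RNA of ken 1, ken 2, hmk 1 and the cerebellum was extracted with Trizol, per the labels, whereas the entry for hmk 2 names only the array manufacturer's standard procedure. The submitters' design text states that replicates are too few for statistics, and p-values below measure only the spread between these samples.

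In the developing cerebellum, granule neuron precursors divide in the outer layer in response to the ligand Sonic hedgehog, which Purkinje cells release. The ligand binds the receptor Ptch1, which otherwise holds Smoothened inactive. Active Smoothened frees the Gli transcription factors, and Ptch1, Gli1 and Hhip are themselves among the genes the Gli factors turn on. Medulloblastomas of mice commonly arise from these precursors when the pathway is held on.

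By correlation, 1 array stood apart among the 4 tumours before any group was compared. Over 13781 genes whose mean tumour signal was 100 or more, ken 1 and ken 2 correlated at r = 0.920, and 9.81% of genes differed at least 2-fold between them. Ken 2 was at least as close to the hmk pair, with r = 0.928 to hmk 1 and 0.925 to hmk 2, as to ken 1. Ken 1 correlated at 0.873 with each hmk tumour, and hmk 1 with hmk 2 at 0.932. The cerebellum correlated at 0.883 with ken 1, 0.875 with ken 2, 0.838 with hmk 1 and 0.834 with hmk 2. Ken 1 was thus nearer to the cerebellum than to either hmk tumour. The 3′ to 5′ ratio of the actin probes, which rises as RNA degrades, was 1.45 for ken 1 and 1.21 to 1.35 on the other 4 arrays. Its signal for the B1 repeat, a control sequence on the array, was 48160, against 10126 to 14419 in the other tumours and 36806 in the cerebellum. Counts without overlap are therefore given without ken 1 as well for the lists the text turns on. Ken 2 was itself lowest on the spiked-in control cre (36214, against 59337 to 78214 on the other arrays). The same held for the control bioB (1086, against 1839 to 3175). The part of these array differences in the results was not tested.

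Across 34945 probe sets with 1 gene symbol, 2 passed the test (limma, Benjamini-Hochberg adjusted p under 0.05), both for protamine 1 (Prm1) and both higher in hmk. That is 0.00572% of probe sets higher in hmk and 0% higher in ken. At an unadjusted p under 0.05 limma gave 1858 probe sets (5.32%) higher in ken and 1694 (4.85%) higher in hmk. The test was 2-sided, so the threshold of 0.05 covers both directions together and not each of them. An exact permutation test of 2 against 2 arrays cannot give a p below 0.333. With so few calls, genes were also described by separation: a gene is called separated 2-fold when the lower tumour of one pair reads at least 2-fold above the higher tumour of the other, on the scale log2(signal + 32). By that rule 347 probe sets (0.993%) were separated with ken higher and 295 (0.844%) with hmk higher. Of 18193 genes, each represented by its brightest probe set, 162 (0.89%) were separated with ken higher and 163 (0.896%) with hmk higher. Pairs without any overlap, whatever the size of the gap, were found for 20.8% of genes with ken higher and 22% with hmk higher, and without ken 1 for 34.2% and 33.5%. These shares are the background for each gene group below.

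Ptch1, the receptor of the pathway, and Prm1, the gene that passed the test, are shown with the 250 bases before their transcription start (RefSeq, GRCm38.p6, minus strand), since the results turn on them. CG dinucleotides are in capitals. Ptch1 lies at chr13:63565736-63565985 and Prm1 at chr16:10796824-10797073.
Ptch1: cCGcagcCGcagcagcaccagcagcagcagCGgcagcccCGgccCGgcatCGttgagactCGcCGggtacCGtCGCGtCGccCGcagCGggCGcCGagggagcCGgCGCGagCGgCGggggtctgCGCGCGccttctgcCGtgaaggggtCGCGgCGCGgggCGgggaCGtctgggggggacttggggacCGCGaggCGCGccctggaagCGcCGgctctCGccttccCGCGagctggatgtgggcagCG
Prm1: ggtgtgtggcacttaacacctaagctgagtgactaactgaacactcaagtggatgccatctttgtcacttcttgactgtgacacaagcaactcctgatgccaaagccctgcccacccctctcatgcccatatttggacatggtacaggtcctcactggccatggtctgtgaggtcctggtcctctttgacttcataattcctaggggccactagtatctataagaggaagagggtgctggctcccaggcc
The Ptch1 window held 41 CG and was 78.4% G or C, and the Prm1 window held 0 CG at 51.6%. Over 32851 promoter windows of the same length the median was 6 CG and 52.4%. A count as high as that of Ptch1 was found in 1.09% of them, and a count as low as that of Prm1 in 7.87%. Neither window contained the Gli motif GACCACCCA on either strand (found in 0.225% of windows) or the letters TATAAA (12.4%).

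Prm1, on chromosome 16, encodes a protamine, a small basic protein that replaces histones in maturing sperm. Its signal was 30.5 in ken 1, 6.33 in ken 2, 2580 in hmk 1, 3117 in hmk 2 and 36.2 in the cerebellum. Both hmk tumours were high and the other 3 arrays were near the bottom of the scale. The difference ken minus hmk was -5.87 ± 0.38 (log2 scale, SE, 2 against 2 arrays; limma adjusted p = 0.00887). A second probe set read 3.84 and 3.59 in ken against 2871 and 2526 in hmk, a difference of -6.25 ± 0.37 (limma adjusted p = 0.00875). The third read 74.5 and 211 against 718 and 602, with 364 in the cerebellum, and did not pass (limma adjusted p = 0.365). All 3 are of the x_at kind, whose probes can also pair with other transcripts, and without such probe sets no gene passed. Without hmk 1 the difference was -6.01 and without hmk 2 it was -5.74. Those fits had 1 residual degree of freedom and 1 hmk array, and their limma adjusted p of 0.519 and 0.653 did not pass. Over all alternatives the adjusted p lay between 0.000574 and 0.653. The size of the difference depends on the constant added to the signal: it was -6.92 with 8 and -4.34 with a constant 4 times as large as 32.

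Most other sperm genes were not separated. On a list of genes of maturing sperm, drawn up after the values were seen, 23 genes other than Prm1 were measured. Of these, 3 were separated with hmk higher (Cyct, Prm3 and Ldhc) and 1, Odf2, with ken higher. Over all genes these shares were 0.896% and 0.89%. Without overlap, 7 lay higher in hmk and 3 higher in ken, or 10 and 5 without ken 1. The shares of all genes were 22% and 20.8%, or 33.5% and 34.2% without ken 1. A list drawn up with the values known does not serve as a test. Cyct, a cytochrome c of the testis, read 172 and 183 in ken, 1091 and 889 in hmk, and 22.2 in the cerebellum. Prm3, the gene of the same cluster that lies beyond Prm2, read 34.5 and 23.4 against 153 and 190. Ldhc, a lactate dehydrogenase of sperm, read 25.5 and 40.1 against 115 and 221. Prm2, the second protamine, overlapped at 16.7, 128.1, 130 and 43.8 in ken 1, ken 2, hmk 1 and hmk 2. The transition proteins Tnp1 and Tnp2, which precede protamines on sperm DNA, overlapped as well. The median over the 23 genes was -0.26, against -0.02 over all genes. Among the 3 measured genes on each side of Prm1, only Prm3 was separated, and the other neighbours Rmi2, Litaf and Snn were not.

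**Figure D1:**
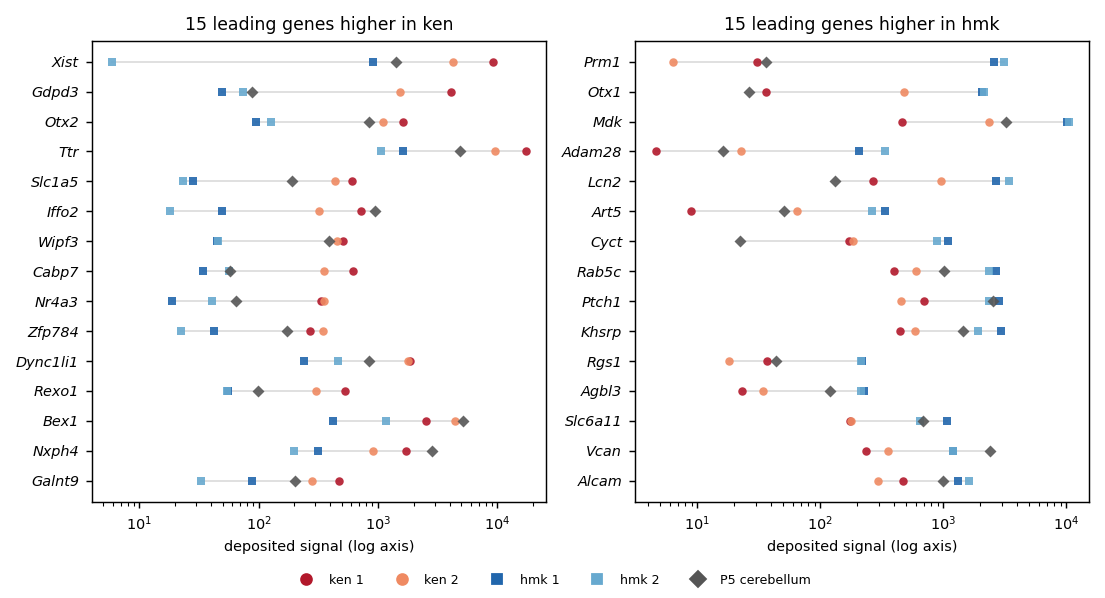
Deposited signal on a log axis for the 15 leading genes in each direction, chosen by the rule in the text, with 1 point per array. Genes with ken higher are on the left and those with hmk higher on the right. Every gene shown is separated at least 2-fold between the pairs, which is how it was chosen, and only Prm1 passed the test.

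After Prm1, the smallest limma adjusted p was 0.0670, so the leading genes that follow are uncalled and are given by their values. They were chosen as the 15 furthest in each direction among the genes separated 2-fold. Both tumours of the higher pair had to reach a signal of at least 200. Genes with clone or prediction names, such as those ending in Rik, were passed over. That left 78 genes with ken higher and 48 with hmk higher.

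Gdpd3, a lipid phosphodiesterase gene on chromosome 7, read 4063 in ken 1 and 1541 in ken 2, against 49.2 and 74.1 in hmk and 88.2 in the cerebellum. The ken tumours alone were high, and the difference was 4.77 ± 0.46. Its 3 measured neighbours on each side lay between -0.23 and 0.68, and 0 of the 6 were separated. Otx2, a homeobox factor of the choroid plexus and the posterior cerebellum, read 1608 and 1111 in ken, 95.3 and 126 in hmk, and 843 in the cerebellum (3.27 ± 0.33). Ttr, the thyroid hormone carrier transthyretin made by the choroid plexus, read 17194 and 9619 in ken, 1619 and 1065 in hmk, and 4876 in the cerebellum (3.26 ± 0.31). Its other 3 probe sets differed in the same direction by 2.43 to 2.68. Their limma adjusted p values, among the smallest after Prm1, were 0.067 for Gdpd3, 0.0703 for Otx2 and 0.067 for Ttr. All 3 passed when probe sets with a mean signal under 100 were left out. With ken higher, an x_at probe set of Erdr1 then passed as well (15557 and 14128 in ken, 3727 and 3912 in hmk). Prdx2 did too, at 1332 and 2071 in ken against 246 and 200 in hmk, on a probe set other than its brightest. By its brightest probe set Prdx2 was not among the leading genes. With hmk higher, Rab5c, Cyct, Ptch1 and Prm1 passed under that filter. So did a probe set of Tfpi, again not its brightest, at 67.5 and 42.2 in ken against 796 and 714 in hmk.

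The other leading genes higher in ken covered several kinds of protein. Slc1a5, a glutamine transporter, read 611 and 436 in ken against 28.3 and 23.4 in hmk. Dync1li1, a light intermediate chain of the motor dynein, read 1868 and 1799 against 241 and 467. Nr4a3, an orphan nuclear receptor and early response gene, read 334 and 352 against 18.7 and 40.9. In all 3 the cerebellum lay between the pairs, at 190, 838 and 64.9. Bex1, an X-linked gene of developing neurons, read 2525 and 4442 in ken, 424 and 1159 in hmk and 5155 in the cerebellum. Nxph4, a neurexophilin that binds neurexins at synapses, read 1702 and 904 in ken, 312 and 199 in hmk and 2841 in the cerebellum. Unlike the genes before them, these last 2 were highest in the cerebellum. The remaining leading genes higher in ken were Xist, Iffo2, Wipf3, Cabp7, Zfp784, Rexo1 and Galnt9, with differences from 2.17 for Galnt9 to 5.05 for Xist. Probe sets of a gene did not always go together. A second probe set overlapped between the pairs for Rexo1 (882 and 843 in ken, 889 and 732 in hmk), Slc1a5 and Cabp7, and both further probe sets of Nr4a3 overlapped, one of them at 35.8 and 82.8 in ken against 76.9 and 98.4 in hmk.

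Among the genes higher in hmk, Otx1, the homeobox relative of Otx2, went the opposite way. It read 36.3 in ken 1, 479 in ken 2, 2067 in hmk 1, 2125 in hmk 2 and 26.5 in the cerebellum, a difference of -3.51 ± 0.78. Mdk, the growth factor midkine, read 461 and 2334 in ken, 10189 and 10444 in hmk and 3230 in the cerebellum (-3.26 ± 0.61). In both genes the hmk tumours lay close together and the ken tumours far apart. Lcn2, the iron-binding secreted protein lipocalin 2, read 268 and 958 in ken, 2679 and 3437 in hmk and 131 in the cerebellum.

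Rab5c, a small GTPase of early endosomes, read 397 and 603 in ken, 2674 and 2331 in hmk and 1006 in the cerebellum (-2.28 ± 0.25; limma adjusted p = 0.0853). Khsrp, an RNA-binding regulator of mRNA decay, read 445 and 592 against 2926 and 1905, and its other 2 probe sets were also higher in hmk, with differences of -1.06 and -1.89. None of the 6 measured neighbours of Rab5c or of Khsrp was separated. Vcan, the matrix proteoglycan versican, read 237 and 352 in ken, 1202 and 1203 in hmk and 2395 in the cerebellum. Alcam, an adhesion molecule of migrating neurons, read 471 and 295 against 1321 and 1629. Of the 7 further probe sets of Vcan, those with signals of 212 or more in hmk were higher there as well, and the dim ones overlapped or stayed near the bottom of the scale. The other leading genes higher in hmk were Adam28, Art5, Cyct, Rgs1, Agbl3, Slc6a11 and Ptch1, with differences from -2.73 for Adam28 to -2.06 for Slc6a11. Some further probe sets of Agbl3 overlapped, such as 125 and 108 in ken against 105 and 113 in hmk, and the rest were higher in hmk. A dim further probe set of Slc6a11 overlapped as well. So did a further probe set of Alcam (181 and 221 in ken, 154 and 197 in hmk), while its remaining ones were higher in hmk.

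In the Hedgehog pathway the receptor Ptch1 was the leading gene. Its brightest probe set read 692 in ken 1, 451 in ken 2, 2811 in hmk 1, 2352 in hmk 2 and 2538 in the cerebellum. The hmk tumours were at the level of the cerebellum and both ken tumours well under it. The difference was -2.14 ± 0.25 (4.4-fold; limma adjusted p = 0.13), and 0 of its 6 measured neighbours on chromosome 13 were separated. A second probe set read 110.9 and 145 in ken, 450 and 640 in hmk and 610 in the cerebellum. The third read 11.7 and 21.7 in ken, 164 and 196 in hmk and 155 in the cerebellum. All 3 probe sets gave the same order of the 5 arrays into a low ken pair and a higher remainder. The brightest one passed the test when probe sets with a mean signal under 100 were left out (limma adjusted p = 0.0450), and over all alternatives its adjusted p lay between 0.04 and 0.777.

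**Figure D2:**
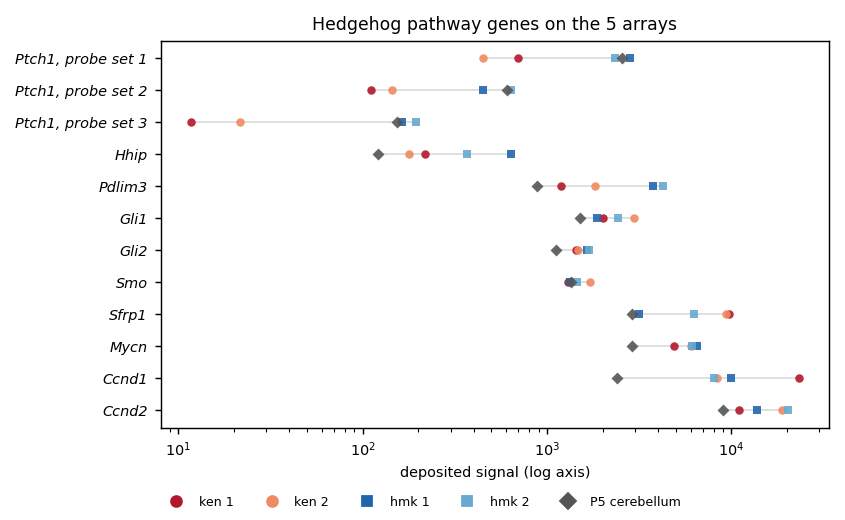
Deposited signal on a log axis for the 3 probe sets of Ptch1 and for 9 other Hedgehog pathway genes, with 1 point per array. Ptch1 is low in both ken tumours on each probe set, while Gli1, Gli2 and Smo lie close together on all tumours.

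Of 13 measured receptors and ligand-binding proteins of the pathway, Ptch1 alone was separated 2-fold (0.896% of all genes with hmk higher). Without overlap, 2 lay higher in ken and 4 higher in hmk (6 and 5 without ken 1). The backgrounds were 20.8% and 22% of all genes, and 34.2% and 33.5% without ken 1. The median difference was 0.10 and changed sign between the ken tumours, at -0.10 for ken 1 and 0.24 for ken 2. Hhip, a decoy receptor that is also a target, read 218 and 178 in ken against 640 and 370 in hmk. Gpc3, a glypican that competes for the ligand, read 145 and 339 against 540 and 647. Cdon, a co-receptor, went the other way, with 288 and 256 against 119 and 61.6. Smo, the gene for Smoothened, overlapped at 1292, 1718, 1333 and 1446 in ken 1, ken 2, hmk 1 and hmk 2.

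The Gli factors differed little. Gli1 read 2012 and 2962 in ken against 1872 and 2436 in hmk, and Gli2 read 1443 and 1471 against 1657 and 1697. Spop, which marks Gli proteins for breakdown, read 2129 and 2056 in ken against 1170 and 1191 in hmk, a difference of 0.81 ± 0.18 with the pairs apart. Of the 14 measured Gli factors and regulators, 0 were separated. Without overlap, 3 lay higher in ken and 2 higher in hmk, or 6 and 3 without ken 1. These counts are read against 20.8% and 22% of all genes, or 34.2% and 33.5% without ken 1.

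Of 21 measured targets, 7 lay without overlap higher in hmk and 3 higher in ken (backgrounds of 22% and 20.8%), 10 and 5 without ken 1 (33.5% and 34.2%). The median was -0.21, and against the hmk mean it was -0.16 for ken 1 and -0.06 for ken 2. The 2 separated targets were Ptch1 and Pdlim3, both with hmk higher, against 0.896% of all genes. Pdlim3 is a muscle-type adaptor protein used as a marker of Hedgehog-driven tumours. It read 1198 and 1831 in ken, 3742 and 4239 in hmk and 882 in the cerebellum. Sfrp1, a secreted Wnt antagonist, read 9661 and 9394 in ken, 3172 and 6232 in hmk and 2894 in the cerebellum. Mycn, the growth-driving target, was 4900 and 6032 in ken and 6521 and 6082 in hmk. Ccnd1, the G1 cyclin D1, was 23239 in ken 1 and 8391, 9962 and 8033 in ken 2, hmk 1 and hmk 2, so only ken 1 stood out. Thus the targets did not share 1 direction.

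Several groups of neuronal genes read higher in ken. Of 17 measured markers of mature granule neurons, 14 lay without overlap higher in ken and 0 higher in hmk, with a median difference of 0.98 against -0.02 over all genes. The shares of all genes without overlap were 20.8% and 22%. Without ken 1 the counts were 14 and 1, read against 34.2% and 33.5% of all genes. The shift was larger in ken 1 (a median of 1.57 above the hmk mean) than in ken 2 (0.66). The hmk tumours differed by a median of -0.36 (hmk 1 minus hmk 2). Fat2, a giant cadherin of granule cells, read 2304 in ken 1, 885 in ken 2, 262 in hmk 1, 386 in hmk 2 and 1044 in the cerebellum. Grin2c, the NMDA receptor subunit of mature granule neurons, read 2106 and 790 in ken, 289 and 381 in hmk and 121 in the cerebellum. Gabrd, a GABA-A receptor subunit of the same cells, read 1789 and 688 against 275 and 432, with 126 in the cerebellum. For Grin2c and Gabrd all 4 tumours were above the P5 cerebellum, and the order from ken 1 to ken 2 to the hmk pair was the same. None of these members passed the test (limma adjusted p between 0.357 and 0.394 for the 4 named by rule, Calb2 included).

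**Figure D3:**
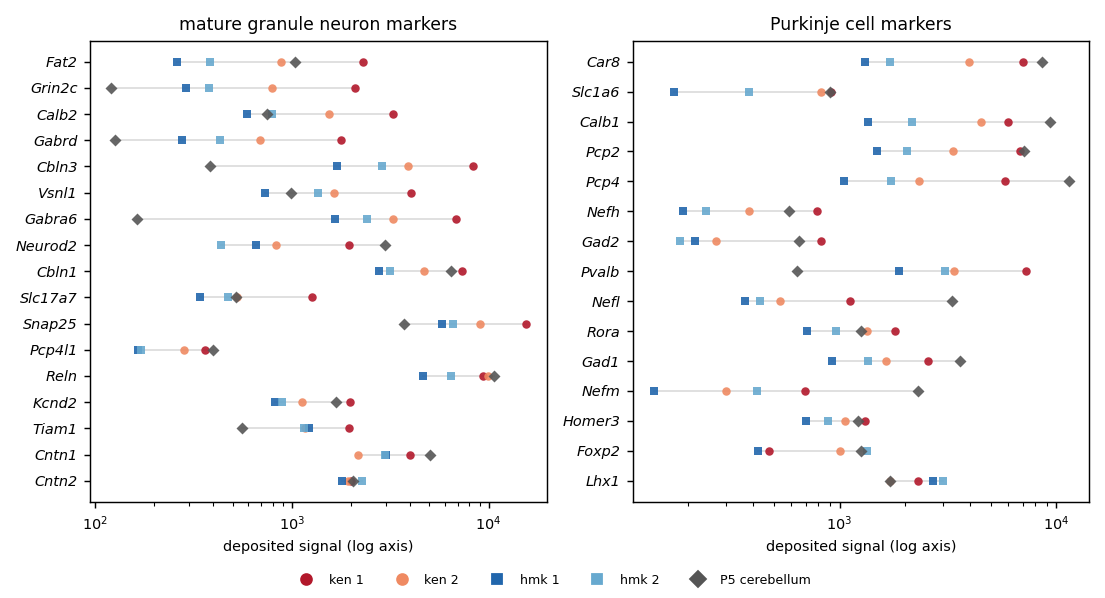
Deposited signal on a log axis for each measured marker of mature granule neurons (left, 17 genes) and of Purkinje cells (right, 15 genes), with 1 point per array. In most rows ken 1 is furthest right among the tumours, ken 2 next, and the hmk pair to the left.

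Purkinje cells are the output neurons of the cerebellum and lie beneath the granule precursor layer. Of their 15 measured markers, 12 lay without overlap higher in ken and 1, Lhx1, higher in hmk. The counts were also 12 and 1 without ken 1. Shares of all genes were 20.8% and 22%, and 34.2% and 33.5% without ken 1. The median difference was 1.03, with 1.57 for ken 1 and 0.53 for ken 2, and -0.44 for hmk 1 minus hmk 2. The 3 separated members were Car8, Slc1a6 and Calb1, all with ken higher, against 0.89% of all genes. Car8, a carbonic anhydrase relative, read 7007 and 3971 in ken, 1311 and 1717 in hmk and 8607 in the cerebellum. Slc1a6, the Purkinje glutamate transporter, read 910 and 824 in ken, 173 and 381 in hmk and 902 in the cerebellum. Calb1, the calcium buffer calbindin, read 5972 and 4482 in ken, 1350 and 2148 in hmk and 9342 in the cerebellum. Summed over the 15 markers the signal was 45524 in ken 1, 26542 in ken 2, 13620 in hmk 1, 19882 in hmk 2 and 53809 in the cerebellum. For the granule neuron markers the sums were 74501, 44417, 26810, 33218 and 37640. In bulk tissue, fewer cells of a type and less RNA per cell cannot be told apart, and the amount of normal cerebellum in each tumour piece was not measured.

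Synapse and potassium channel genes lay the same way. As background, 20.8% of all genes lay without overlap higher in ken and 22% higher in hmk, or 34.2% and 33.5% without ken 1. Of 23 measured synapse genes, 17 lay without overlap higher in ken and 2 higher in hmk (17 and 3 without ken 1), with a median of 0.84, which was 1.07 for ken 1 and 0.32 for ken 2. Bsn, the presynaptic scaffold bassoon, read 1299 and 998 in ken against 451 and 486 in hmk. Slc17a6, a vesicular glutamate transporter, read 1954 and 1748 against 950 and 741. Of 21 potassium channel genes, 10 lay higher in ken and 1 higher in hmk without overlap (11 and 4 without ken 1), with a median of 0.72, which was 1.0 for ken 1 and 0.26 for ken 2. Kcna1, a voltage-gated channel of axons, read 2397 in ken 1, 1073 in ken 2, 528 in hmk 1 and 706 in hmk 2. Kcnc1 showed how far ken 1 alone could carry a difference, with 4774 in ken 1 and 922, 722 and 1112 in ken 2, hmk 1 and hmk 2. Inhibitory interneuron markers did not share the shift: 3 of 12 lay without overlap higher in ken and 3 higher in hmk, or 3 and 4 without ken 1.

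**Figure D4:**
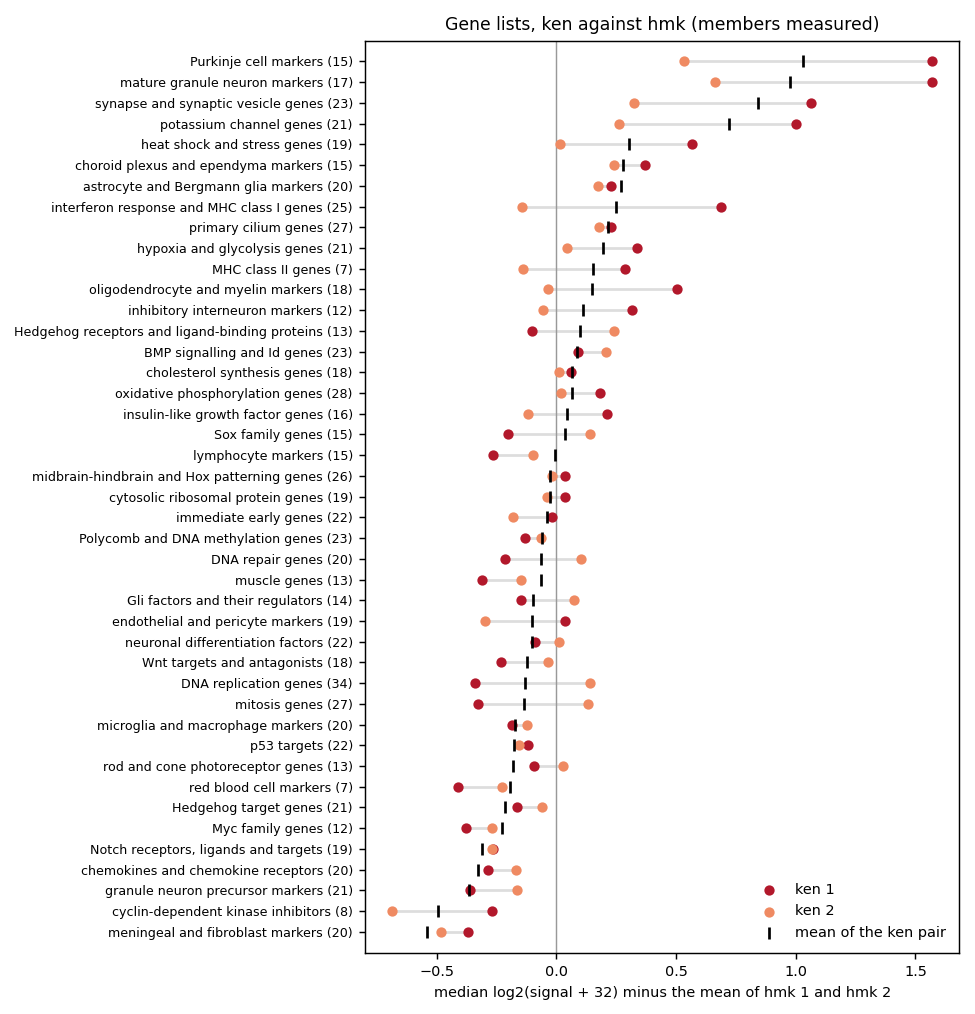
Median over the measured members of each gene list (number in brackets) of log2(signal + 32) in ken 1 and ken 2 minus the mean of the hmk pair, with the ken mean as a black tick. By the tick, the Purkinje, mature granule neuron, synapse and potassium channel lists lie furthest right, with ken 1 beyond ken 2 in these 4, and the meningeal list lies furthest left.

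Markers of the precursors lay the other way. Of 21 measured markers of granule neuron precursors, 10 lay without overlap higher in hmk and 1 higher in ken, and 12 and 1 without ken 1. The shares over all genes were 22% and 20.8%, and 33.5% and 34.2% without ken 1. The median difference was -0.36, and -0.16 for ken 2 alone, with 0 members separated 2-fold. Between the hmk tumours the median (hmk 1 minus hmk 2) was -0.20, larger in size than that of ken 2. Insm1, a zinc finger factor of dividing neuronal progenitors, read 6955 and 7084 in ken, 11456 and 11669 in hmk and 4915 in the cerebellum. Atoh1, the factor that defines the granule lineage, read 4178 and 7341 in ken, 9505 and 7872 in hmk and 963 in the cerebellum. In all 4 tumours Atoh1 was above the P5 cerebellum. Cxcr4, the receptor that holds precursors in the outer layer, read 2140 and 3666 in ken against 4052 and 4531 in hmk.

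Cell division genes differed in direction between the ken tumours. Of 34 measured DNA replication genes, 8 lay without overlap higher in hmk and 4 higher in ken. Without ken 1 the counts were 8 and 20. In the same order, the shares of all genes were 22% and 20.8%, and 33.5% and 34.2% without ken 1. The median was -0.34 for ken 1 and 0.14 for ken 2 against the hmk mean. Mitosis genes (27 measured) gave similar values, with medians of -0.33 and 0.13 and counts of 4 higher in hmk and 1 higher in ken, or 4 and 16 without ken 1. Rrm2, the ribonucleotide reductase subunit that supplies DNA precursors, read 2029 in ken 1, 3016 in ken 2, 4674 in hmk 1 and 3902 in hmk 2. Mad2l1, of the spindle checkpoint, read 1878 in ken 1 and 3355, 4166 and 4170 in the other tumours. Both belong to the genes without overlap that were higher in hmk. Pcna, the sliding clamp of DNA synthesis, overlapped, with 12527 in ken 1 as the lowest, 16943 in ken 2 as the highest and 14910 and 14908 in hmk.

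Of the 8 measured inhibitors of cyclin-dependent kinases, 4 lay without overlap higher in hmk and 0 higher in ken, with a median of -0.50. Cdkn2a, whose products act on the Rb and p53 pathways, read 114 and 76 in ken against 331 and 369 in hmk and was separated 2-fold. Cdkn1b, the inhibitor p27, read 2848 and 3101 against 4095 and 4362. Without ken 1 the counts were 5 higher in hmk and 2 higher in ken. In the Myc family 7 of 12 lay without overlap higher in hmk and 1 higher in ken (8 and 3 without ken 1). Max, the shared partner of the Myc proteins, read 97.8 and 171 in ken against 519 and 547 in hmk. Myc itself read 329 and 746 against 1333 and 874. Notch genes lay likewise, with 11 of 19 higher in hmk and 2 higher in ken, 14 and 3 without ken 1, and a median of -0.31. The inhibitor, Myc and Notch counts are read against 22% and 20.8% of all genes, or 33.5% and 34.2% without ken 1. Dll3, a ligand-like Notch inhibitor, read 280 and 563 against 731 and 874, and the ligand Jag1 read 508 and 645 against 1126 and 833.

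Among cells other than neurons, the meningeal and fibroblast markers read lower in ken. Of 20 measured, 14 lay without overlap higher in hmk and 3 higher in ken, 15 and 4 without ken 1, with a median of -0.54. Backgrounds were 22% and 20.8% of all genes, and 33.5% and 34.2% without ken 1. Col1a2, a chain of collagen I, read 442 and 545 in ken, 975 and 848 in hmk and 2588 in the cerebellum. Foxd1, a forkhead factor on the same list, went against it at 1137 and 185 in ken, 4.2 and 13 in hmk and 188 in the cerebellum. The summed signal of the list did not follow its median, at 44506, 34042, 40197 and 35861 in ken 1, ken 2, hmk 1 and hmk 2, and Zic1, Ptgds, Foxd1 and Slc6a13 were highest in ken 1 among the tumours.

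Of 20 measured microglia and macrophage markers, 7 lay without overlap higher in hmk and 0 higher in ken (9 and 5 without ken 1). Among all genes the shares were 22% and 20.8% (33.5% and 34.2% without ken 1). Lgals3, galectin 3 of activated phagocytes, was separated, with 344 and 417 in ken against 1478 and 905 in hmk. Tyrobp, an adaptor of microglial receptors, ranged only from 1776 to 1949 over the 4 tumours. Endothelial and pericyte markers had a median of -0.10, which was 0.04 for ken 1 and -0.30 for ken 2. Anpep, a peptidase of vessel walls, was their separated member, with 25.4 and 23.6 against 192 and 318. Oligodendrocyte markers had a median of 0.50 in ken 1 and -0.03 in ken 2, and Mbp, myelin basic protein, read 28288 in ken 1 and 11445, 7719 and 7760 in ken 2, hmk 1 and hmk 2.

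Otx2 and Ttr both stand on the list of choroid plexus and ependyma markers, of which they were the separated members (2 of 15). Over all genes, 0.89% were separated with ken higher. Without overlap, 4 of the 15 lay higher in ken and 2 higher in hmk, or 8 and 3 without ken 1. Shares over all genes were 20.8% and 22%, or 34.2% and 33.5% without ken 1. Of the rest, Slc4a5 and Lmx1a lay without overlap higher in ken, Kcne2 and Clic6 higher in hmk, and the others overlapped. Slc4a5, a bicarbonate transporter, read 137 and 49.1 in ken against 15.5 and 22.9 in hmk. Clic6, a chloride channel of the plexus, read 634 and 653 against 774 and 761, and Foxj1, the factor of ciliated ependyma, read 139 and 131 against 160 and 122. Without Ttr and Otx2, the summed signal of the list was 1872 in ken 1, 1935 in ken 2, 1593 in hmk 1, 1957 in hmk 2 and 2905 in the cerebellum, and the pairs overlapped.

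Chemokine genes bear on the series title. Cxcr6 was dim on all arrays, at 14.5 in ken 1, 82.1 in ken 2, 124 in hmk 1, 51.1 in hmk 2 and 34.9 in the cerebellum, and the pairs overlapped. The brightest probe set of its ligand Cxcl16 read 386 and 457 in ken against 327 and 396 in hmk and also overlapped. A second Cxcl16 probe set, of the s_at kind, was separated with hmk higher, at 75.5 and 81.1 in ken against 242 and 386 in hmk, so direction differed between the probe sets. These values do not assign a genotype to any tumour.

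Sex-linked genes differed within the hmk pair. Xist, the RNA that coats the silenced X chromosome in female cells, read 9125 in ken 1, 4278 in ken 2, 918 in hmk 1, 5.97 in hmk 2 and 1414 in the cerebellum. Eif2s3y, a Y-linked translation factor gene, read 19.3 in ken 1, 46 in ken 2, 2.7 in hmk 1, 282 in hmk 2 and 506 in the cerebellum. Kdm5d, a Y-linked histone demethylase gene, read 3.78, 59.3, 17.7 and 332, with 348 in the cerebellum. Hmk 2 and the cerebellum had the highest signals of both genes. Zfy2, a Y-linked zinc finger gene, differed from them at 55.1 and 27.7 in ken against 200.2 and 147 in hmk. Xist lay at least 2.18 (log2) higher in each ken tumour than in hmk 1. The sex of the animals is not in the labels.

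The cerebellum did not sit midway. Of the 162 genes separated with ken higher, the cerebellum was on the ken side of the midpoint for 127 (78.4%), and beyond the ken mean for 77. Over all genes with a higher ken mean the share was 64.3%. Of the 163 separated with hmk higher it was on the ken side for 104 (63.8%), against 54.1% of all genes with a higher hmk mean. Of the 15 leading genes higher in hmk, the cerebellum was on the ken side for 9, and on the hmk side for Ptch1, Khsrp, Agbl3, Slc6a11, Vcan and Alcam. The cerebellum has no replicate and was not in the test.

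**Figure D5:**
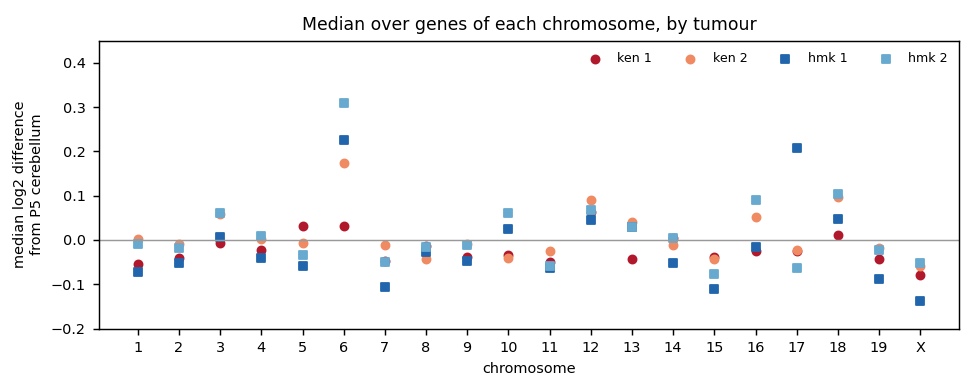
Median log2(signal + 32) of each tumour minus the P5 cerebellum for the genes of each chromosome. Chromosome 6 is the highest chromosome in hmk 1, hmk 2 and ken 2 but not in ken 1, and chromosome 17 is raised in hmk 1.

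By chromosome, the 711 genes of chromosome 6 with a mean signal of 100 or more had a median difference of -0.16, and 232 lay without overlap higher in hmk against 108 higher in ken. Over all 13781 such genes these shares were 22.1% and 22.6%. Without ken 1 the counts were 288 and 204, read against 32.8% and 35.9%. Set against the cerebellum, the chromosome 6 median was 0.03 in ken 1, 0.17 in ken 2, 0.23 in hmk 1 and 0.31 in hmk 2. It was the highest of the chromosomes in ken 2 and both hmk tumours, but not in ken 1. Chromosome 17 stood at 0.21 in hmk 1 alone, with -0.06 to -0.02 in the other tumours. On chromosome 7 the median difference was 0.08 towards ken. Copy number was not measured.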

How the data were processed

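RNA of 4 mouse medulloblastomas and 1 P5 cerebellum was measured on Affymetrix arrays. The deposited values are linear intensities, 1 per probe set, made by the authors with MAS5 per the submitters' processing notes; for hmk 1 no tool is given in the sources used here. The mean after removing 2% at each end was 500.002 on every array, so no further scaling was done. Detection calls were not used here, and the number of arrays limits the precision.

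Of 45101 probe sets, 64 were controls, 932 had several gene symbols, 9160 had none, and 34945 were tested on log2(signal + 32) with limma 3.58.1 in R 4.3.3 (lmFit, eBayes with a trend; 2 residual and 5.58 prior degrees of freedom), ken minus hmk. The constant of 32 understates differences of dim genes. The test was 2-sided, errors after ± are its SE, and p-values were adjusted by Benjamini-Hochberg over all 34945. The cerebellum was not in the fit. The procedure was tested on simulated data.

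A gene was represented by its brightest probe set, with x_at and s_at probe sets used only where no other existed. Members and 44 gene lists (815 of 905 entries measured) were chosen with earlier results of these data known; the list of sperm genes and the grouping by chromosome were added after the values were seen. Genes named were Ptch1, Gli1, Gli2, Hhip, Sfrp1, Smo, Mycn, Ccnd1, Ccnd2, Atoh1, Cxcr6, Cxcl16, the sex-linked genes, the 15 leading genes in each direction, and, from each list, at most 4 members by size of difference. Foxj1, Clic6, Kcne2, Lmx1a, Slc4a5, Tyrobp, Lhx1, Zic1, Ptgds, Slc6a13, Pcna, Erdr1, Prdx2 and the sperm genes other than Prm1 and Cyct were named after their values were seen. So was Tfpi. Groups follow the title prefix, and replicate numbers follow the order of the records and pair nothing. There were 16 alternatives: scaling, constant, filters, probe set choice, variance model, threshold and leaving out each tumour. Promoter sequences and gene order are from RefSeq tables of GRCm38.p6.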

Additional observations from a re-analysis of the deposited data

How the results depend on the processing

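With 2 arrays a side the counts moved with many choices. Against 0 probe sets called higher in ken, limma called 5 with a constant of 8, 7 and 6 with a mean signal of at least 100 or 200, 6 at an adjusted p of 0.10, and 0 to 93 with 1 tumour left out (93 without ken 2). Against 2 called higher in hmk, it called 6 with a mean of at least 100, 0 with signals floored at 50, 0 without x_at and s_at probe sets, 0 without a variance trend, and 0 to 55 with 1 tumour left out (0 without hmk 1 or without hmk 2, 55 without ken 2). Prm1 was then at an adjusted p of 0.224 with the floor and 0.256 without the trend (limma). Probe sets separated with ken higher (347) numbered 617 and 82 with a constant of 8 and one 4 times as large as 32, 220 and 117 with a mean of at least 100 or 200, and 697 to 1862 with 1 tumour left out. With hmk higher (295) they numbered 549, 48, 156, 70, and 786 to 1990. The cerebellum lay on the ken side of 46 genes separated with ken higher at a mean of at least 200, and of 57 and 27 separated with hmk higher at a mean of at least 100 or 200. Fewer probe sets enter under the filters, and fewer tumours have to be apart when 1 is left out; the cause of the other shifts was not tested.

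Of 1773 values of the 129 named genes under 16 alternatives, 1711 kept direction and side of the threshold, 35 newly passed, 4 no longer passed (all for Prm1) and 23 changed sign, in 16 genes. With the mean of all probe sets Mycn was 0.31, Smo -0.078 and Cxcl16 -0.71, and Tsix was 0.017 after quantile normalization and 0.038 with a constant of 8. With 1 tumour left out Gli1 ranged from -0.085 to 0.47, Smo from -0.10 to 0.30, Ccnd1 from -0.092 to 1.37 and Ccnd2 from -0.60 to 0.17. Cxcr6 ranged from -1.29 to 0.0038, Gli3 from -0.99 to 0.066, Ptf1a from -0.35 to 1.29, Cd14 from -0.016 to 2.0 and Ccdc153 from -0.44 to 1.12. For the sex-linked genes the ranges were Tsix -0.59 to 0.58, Eif2s3y -2.31 to 0.87, Kdm5d -2.67 to 0.20, Uty -1.33 to 0.996, Usp9y -0.60 to 0.42. List medians moved by more than the spread between replicates for 41 lists. That was the case for 98 values, against 487 that did not move so far. Over all alternatives the medians ranged from 0.66 to 1.57 for mature granule neurons, 0.53 to 1.57 for Purkinje cells and 0.32 to 1.07 for synapse genes. They ranged from 0.26 to 1.0 for potassium channels, -0.44 to -0.16 for granule precursors, and -0.57 to -0.37 for meningeal markers. No paired analysis was possible because the replicate numbers only follow the order of the records.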
